A study of Homo sapiens with 6 samples.

Results

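Endothelial cells call white blood cells out of the circulation with a small set of secreted and surface proteins, and the genes for many of them are switched on by the transcription factor NF-kB. In resting cells NF-kB is held in the cytoplasm by inhibitors of the IkB family. Inflammatory signals make the IKK kinase mark IkB for destruction, NF-kB then enters the nucleus and binds kappa-B sites near its target genes, and among those targets are its own inhibitors, which close the loop. Low oxygen can touch this system through the oxygen-sensing hydroxylases, which are known to act on IKK as well as on HIF.

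The genes described here are 10 of the 22153 genes in the deposited table, chosen by name: the chemokine genes CXCL1, CXCL2, CXCL3, CXCL8 and CCL2, the cytokine gene IL6, the adhesion genes ICAM1 and VCAM1, and the feedback genes NFKBIA and TNFAIP3. All 10 were in the table, and 9 of them passed the filter on low values; VCAM1 did not. They were read in EA.hy926, a hybrid human line whose parents are endothelial cells of the umbilical vein and A549, a lung carcinoma line, grown in high-glucose medium with serum. Polyadenylated RNA came from 3 libraries of cells in normoxia (20% O2) and 3 libraries of near-confluent cells held in hypoxia (1% O2) for 8 h; no inflammatory agent is named for either group. Whether the replicates were separate cultures is not in the labels, and p-values then describe the spread of these libraries alone, which may be technical.

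The libraries held 17226736 to 18652704 reads assigned to genes. Values are given as scaled reads, the deposited reads per gene divided by 1 size factor per library (0.944 to 1.06), and differences as log2 hypoxia minus normoxia. The labels were checked against known hypoxia-responsive genes. ANGPTL4, a secreted lipase inhibitor, had a hypoxia mean 32.1 times its normoxia mean, and BNIP3, a mitophagy receptor, 11.2 times (adjusted p = 0.00758 and 0.00207 by limma). The endothelial label was checked against 10 markers, of which 9 passed the filter; the junction gene CDH5 held 8576 to 36221 scaled reads, while EMCN, a sialomucin of the capillary surface, held at most 3.79. Normoxia replicate 3 and hypoxia replicate 1 stood apart from the other libraries: their summed endothelial markers were 349 and 405 FPKM, against 583 to 1017 FPKM in the other 4 libraries, and their summed epithelial markers were 1124 and 963 FPKM, against 620 to 767. Of the 7 epithelial markers 6 were in the table and 4 passed the filter. KRT7, KRT8 and, below the filter, EPCAM were highest in normoxia replicate 3 and hypoxia replicate 1. KRT18 was highest in normoxia replicate 3, but hypoxia replicate 3 lay above hypoxia replicate 1. MUC1 went the other way, lowest in these 2 libraries (26.3 and 50.8 scaled reads, against 71.0 to 118), as did KRT19, below the filter. Leukocyte markers (5 of 7 in the table) summed to 0.617 to 3.33 FPKM in normoxia and 1.14 to 2.87 FPKM in hypoxia, and fibroblast and mural markers (5 of 8) to 4.38 to 6.68 and 5.17 to 6.33 FPKM. No marker passed the test. In bulk RNA, fewer cells of a type and less RNA per cell cannot be told apart.

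The short sequences below show the motif that these genes share close to their transcript starts, and are given so that the common element can be read letter by letter. Each line is 30 bases, read 5′ to 3′ on the strand of the gene, from RefSeq promoters on GRCh38.p14, and the capitals mark matches to the kappa-B consensus or to the shorter motif GGNNNTTCC on either strand.
CXCL1 (chr4:73869305-73869334, plus strand): tggaactccGGGAATTTCCCtggcccgggg
CXCL2 (chr4:74099253-74099282, minus strand): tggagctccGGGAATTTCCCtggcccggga
CXCL3 (chr4:74038748-74038777, minus strand): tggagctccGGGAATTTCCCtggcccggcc
CXCL8 (chr4:73740468-73740497, plus strand): tgcaaatcgtGGAATTTCCtctgacataat
IL6 (chr7:22727117-22727146, plus strand): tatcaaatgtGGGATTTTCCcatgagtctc
ICAM1 (chr19:10270924-10270953, plus strand): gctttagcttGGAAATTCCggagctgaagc
VCAM1 (chr1:100719670-100719699, plus strand): tccccttgaaGGGATTTCCCtccgcctctg
NFKBIA (chr14:35404811-35404840, minus strand): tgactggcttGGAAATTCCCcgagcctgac
TNFAIP3 (chr6:137867188-137867217, plus strand): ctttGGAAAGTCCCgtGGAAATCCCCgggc

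RefSeq promoters, 250 bases before and 50 bases after the start, were found for 9 of the 10 genes; CCL2 had none in the table used. GGNNNTTCC was found in all 9, against 20.1% of all 35116 promoters of that length, and the stricter 10-letter kappa-B consensus in 7 of 9, against 5.91%. CXCL8 and ICAM1 held the shorter motif alone. The 2 motifs overlap, so a consensus match often holds a match to the shorter one. In 8 of the 9 promoters the match shown began 55 to 91 bases before the start, and in ICAM1 it began 186 bases before it. TNFAIP3 had 2 consensus matches, and CXCL1, CXCL2 and CXCL3 each had a second GGNNNTTCC match that began 53 bases before the start. These counts are descriptions of letters in a window, and the genes were chosen as known NF-kB targets, so the share among them is not independent of that choice.

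Longer stretches upstream of CXCL1 and CXCL8, chemokine genes on the same chromosome, are given below. They cover unlike windows: positions -100 to -1 from the start in CXCL1, and -140 to -64 in CXCL8. In the first line the capitals are a stretch matching both motifs and then a match to GGNNNTTCC alone, and in the second they are TGANTCA, the AP-1 motif, followed by the GGNNNTTCC match.
CXCL1 (chr4:73869293-73869392, plus strand): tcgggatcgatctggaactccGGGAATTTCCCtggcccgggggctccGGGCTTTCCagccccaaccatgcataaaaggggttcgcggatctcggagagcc
CXCL8 (chr4:73740429-73740505, plus strand): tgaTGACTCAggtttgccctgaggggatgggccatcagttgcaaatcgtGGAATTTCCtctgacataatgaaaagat
The TGANTCA match of CXCL8, which began 137 bases before the start, was the single one among the 9 promoters, against 7.71% of all promoters. The core of the hypoxia response element was searched in its 2 usual forms. The form ACGTG was found in TNFAIP3 alone, against 21.4% of all promoters. The other form, which reads GCGTG, was found in ICAM1 alone, against 36.5%. A promoter without a match lacks these letters in this window, and nothing more follows from it.

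**Figure D1:**
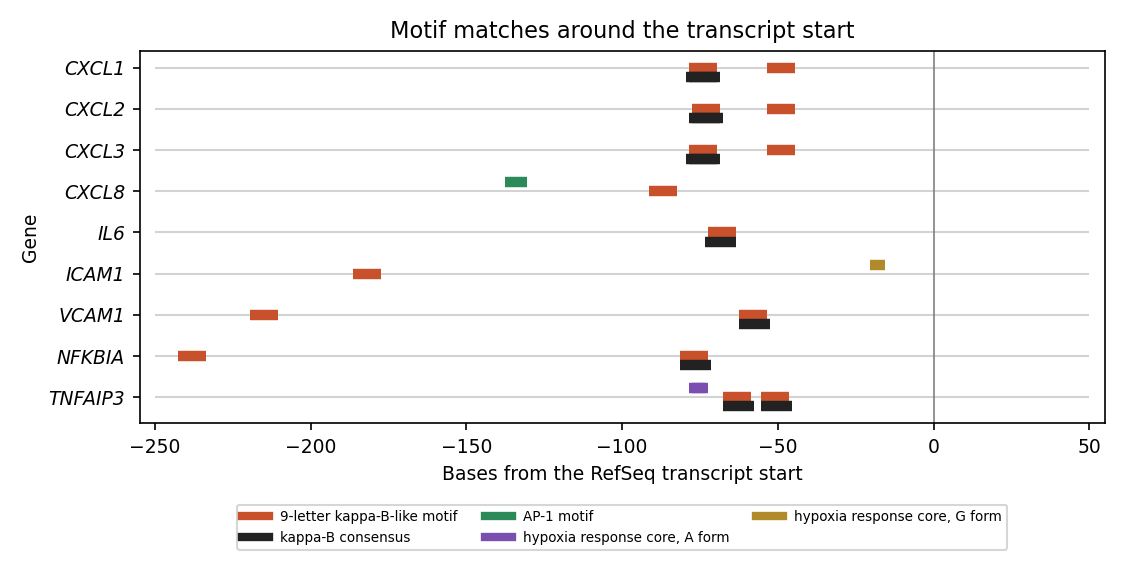
Positions of motif matches in 9 promoters, in bases from the RefSeq transcript start (x axis), with a row for each gene; coloured bars are matches on either strand. Matches to the kappa-B consensus begin 55 to 81 bases before the start in 7 promoters, and matches to GGNNNTTCC begin 53 to 242 bases before it in all 9.

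The levels of the 10 genes spanned a wide range. Levels per length were compared in FPKM, computed here from the summed exon length of each gene. NFKBIA, which encodes the inhibitor IkB-alpha, had the highest mean over the 6 libraries, 127.6 FPKM (80.8 to 163). It was followed by CXCL8 at 79.1 FPKM (11.1 to 225), CCL2 at 36.6 FPKM (21.0 to 69.5) and ICAM1 at 24.2 FPKM (14.5 to 40.4), and neighbours in this upper group overlapped in range. A gap separated ICAM1 from CXCL2 at 5.68 FPKM (2.86 to 9.64), CXCL1 at 4.92 FPKM (1.10 to 9.50), TNFAIP3 at 3.902 FPKM (2.49 to 5.49) and IL6 at 3.35 FPKM (2.05 to 5.28), whose neighbours also overlapped. CXCL3 lay below these at 1.08 FPKM (0.263 to 1.96), and VCAM1 was last at 0.0206 FPKM (0 to 0.0870). The exon length used for CXCL3 was 2219 bases while its longest coding transcript has 1075, so its level per length would be higher on the transcript alone. The same holds to a lesser degree for CXCL8 (2274 and 1705 bases), CXCL2 (1500 and 1218) and CXCL1 (1296 and 1097). Transcript lengths of the other genes, CCL2 among them, were not compared. The order of levels therefore depends on the length used.

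**Figure D2:**
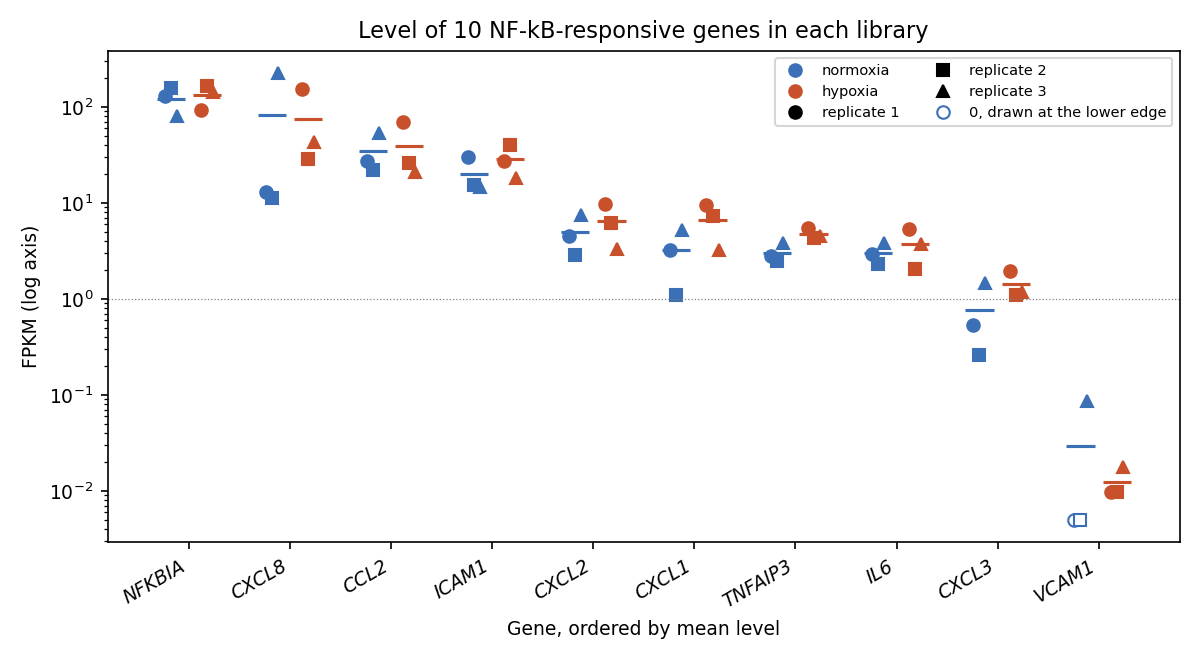
Level of each gene in FPKM (y axis, log scale) in 3 normoxia libraries (blue) and 3 hypoxia libraries (red), with marker shapes for the replicates, short lines for group means and a dotted line at the filter value of 1. CXCL8 spreads from 11.1 to 225 FPKM within normoxia, and VCAM1 is near 0 in every library.

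Hypoxia against normoxia was tested with limma over 10237 genes. None of the 9 genes tested passed (adjusted p = 1.00 for each), beside 0.0977% of all genes tested. In simulated data the same fit found 7.91% of 2-fold changes, so not passing does not show that a gene was unchanged. At an unadjusted p under 0.05 there was 1, TNFAIP3, beside 2.69% of all genes in either direction and 2.19% higher in hypoxia. DESeq2 called 0 of 10 (background 0.29%), with TNFAIP3 again the 1 gene at an unadjusted p under 0.05 (background 1.93%), and edgeR called 0 of 9 (background 0.0674%) with 0 at an unadjusted p under 0.05 (background 2.43%). All 9 tested genes had a positive log2 difference, against 50.6% of all genes, with a median of 0.52 against 0.00 for all genes tested. Without hypoxia replicate 1 alone 6 of the 9 were positive. The median level of these genes in each library varied within groups with an SD of 0.61 on the log2 scale. That is a spread of levels in single libraries and not the error of the median difference, which was not computed. The genes were read in the same 6 libraries and are not independent, and the median was 0.43 over all 10 without the filter. Without normoxia replicate 3 and hypoxia replicate 1, limma again called 0, and the median over the 8 that passed the filter was 0.33.

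**Figure D3:**
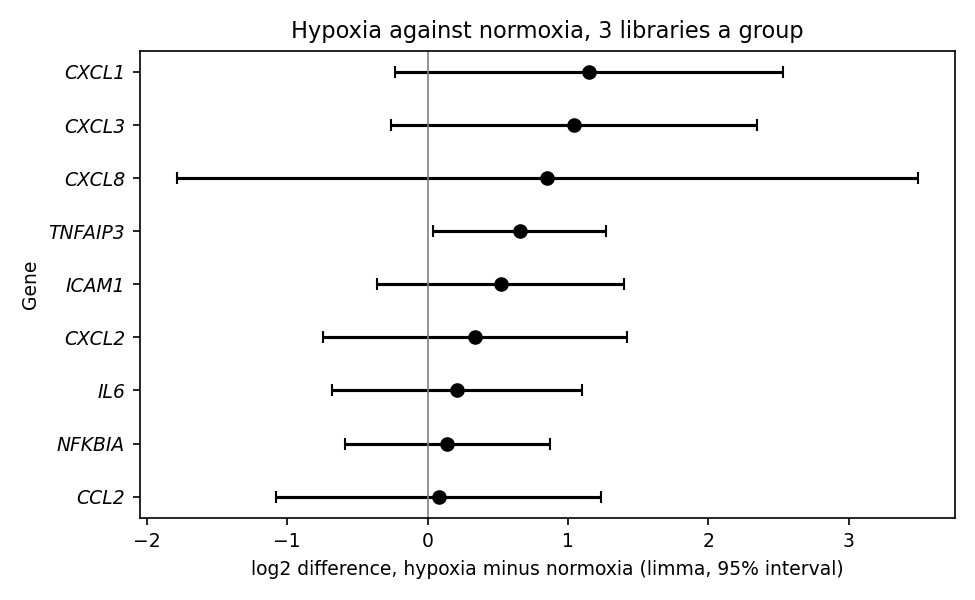
Log2 difference between hypoxia and normoxia (x axis, limma) for the 9 genes tested (y axis), with 95% intervals. All points lie above 0, and the interval of TNFAIP3, from 0.04 to 1.27, is the one that does not include 0.

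CXCL1, CXCL2 and CXCL3 encode close relatives that draw neutrophils through the receptor CXCR2. They lie with CXCL8 in a cluster on chromosome 4: CXCL8 (ENSG00000169429, plus strand, 73740506 to 73743716), CXCL1 (ENSG00000163739, plus strand, 73869393 to 73871242), CXCL3 (ENSG00000163734, minus strand, 74036589 to 74038807) and CXCL2 (ENSG00000081041, minus strand, 74097035 to 74099293), in GENCODE 29 on GRCh38. The longest coding transcripts of CXCL1 and CXCL2 were identical at 90.5% of aligned bases, those of CXCL1 and CXCL3 at 81.7% and those of CXCL2 and CXCL3 at 83.3%. The sources used here do not give how reads fitting several of them were counted, and their separate values are uncertain.

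CXCL1 had 75.2, 25.6 and 121 scaled reads in normoxia replicates 1 to 3 and 219.9, 167 and 75.1 in hypoxia replicates 1 to 3. Hypoxia replicates 1 and 2 were above every normoxia library, while hypoxia replicate 3 lay inside the normoxia range. The means were 74.0 ± 47.9 and 154 ± 73.3 (SD, n = 3 per group), and the log2 difference of 1.15 (95% interval -0.23 to 2.53) was the largest of the 9. It fell to 0.54 without normoxia replicate 2 and reached 1.62 without normoxia replicate 3.

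CXCL3 had 21.2, 10.4 and 58.3 scaled reads in normoxia and 77.8, 43.6 and 46.6 in hypoxia. Its groups overlapped through normoxia replicate 3 alone, which lay above hypoxia replicates 2 and 3. The log2 difference was 1.04 (95% interval -0.26 to 2.34), and 0.50 with a pseudocount of 1, which weighs on a gene this low. It was 0.55 without normoxia replicate 2 and 1.61 without normoxia replicate 3. CXCL2 had 122, 76.7 and 200.3 scaled reads in normoxia and 258, 166 and 89.4 in hypoxia. The groups of CXCL2 overlapped over most of their range, with means of 133 ± 62.6 and 171 ± 84.6 (SD, n = 3 per group) and a log2 difference of 0.34 (95% interval -0.74 to 1.42). Without hypoxia replicate 1 that difference was -0.02.

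CXCL8 encodes interleukin-8, the main neutrophil attractant made by human endothelium, and it was the most uneven of the genes. Its scaled reads were 523, 453 and 9127 in normoxia and 6231, 1168 and 1765 in hypoxia. Normoxia replicate 3 was the highest library of all, 17.4 times the next normoxia library, while the other normoxia libraries were the lowest of the 6. The direction of the difference therefore depended on the scale: the arithmetic means were 3368 ± 4988 and 3055 ± 2767 (SD, n = 3 per group), slightly lower in hypoxia, whereas the log2 difference was 0.85 (95% interval -1.79 to 3.49). DESeq2 and edgeR, which compare means of reads, gave -0.14 and -0.20. Without normoxia replicate 3 the log2 difference was 2.26 (adjusted p = 0.530 by limma), without hypoxia replicate 1 it was 0.15, without normoxia replicate 1 0.20, without normoxia replicate 2 0.10, and without normoxia replicate 3 and hypoxia replicate 1 together it was 1.55 (adjusted p = 0.189, the lowest over the settings tried, which reached 1.00). The spread of CXCL8 within groups, an SD of 1.94 on the log2 scale, exceeded that of 99.5% of the genes tested.

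CCL2 (ENSG00000108691, chromosome 17, plus strand, 34255218 to 34257203) encodes the monocyte attractant MCP-1. It had 969, 776 and 1910 scaled reads in normoxia and 2465, 923 and 745 in hypoxia. Hypoxia held both the highest and the lowest library, with the normoxia libraries between them. With means of 1218 ± 607 and 1378 ± 946 (SD, n = 3 per group) and a log2 difference of 0.08 (95% interval -1.08 to 1.24), no difference was seen beyond the spread. Its sign turned negative after the GC and length correction, without normoxia replicate 1, normoxia replicate 2 or hypoxia replicate 1, and without normoxia replicate 3 and hypoxia replicate 1 together.

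IL6 (ENSG00000136244, chromosome 7, plus strand, 22725884 to 22732002) encodes interleukin-6, a cytokine of the acute phase response. It had 108, 85.2 and 141 scaled reads in normoxia and 195, 75.7 and 138 in hypoxia, so that hypoxia held both the highest and the lowest library. The log2 difference was 0.21 (95% interval -0.68 to 1.10), and -0.09 without hypoxia replicate 1. The exons of IL6 share 428 bp with the antisense gene IL6-AS1, which held 0.940 to 11.7 scaled reads. They also share 46 bp with STEAP1B on the opposite strand, which held 212 to 566 scaled reads, more than IL6 itself. Since the sources used here give no strand setting for the counting, reads from these shared stretches cannot be told apart.

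**Figure D4:**
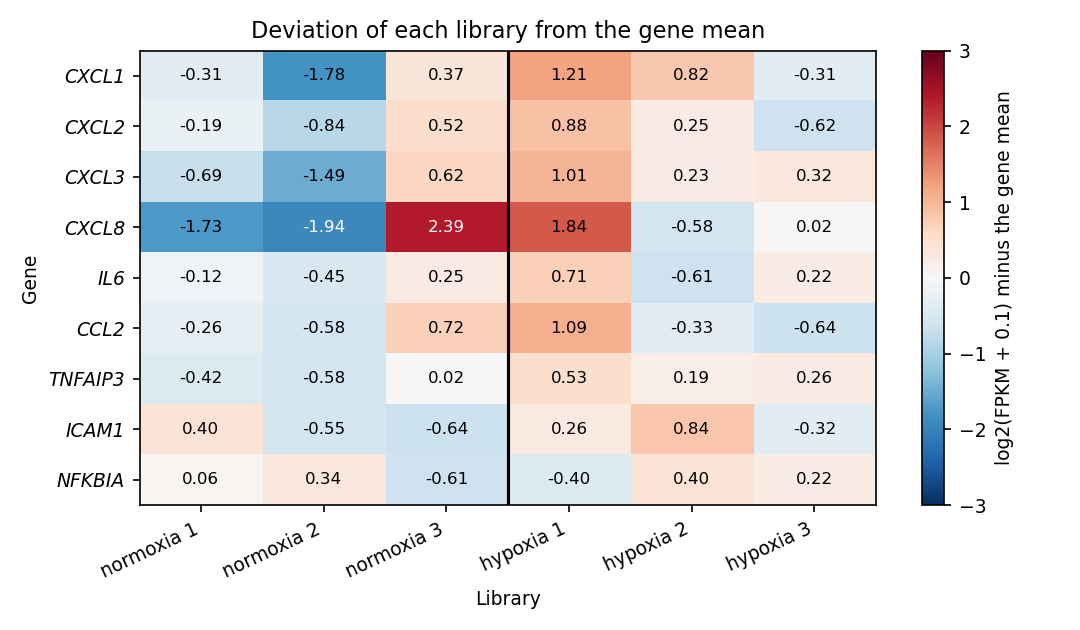
Deviation of log2(FPKM + 0.1) in each library (columns) from the gene's mean over the 6 libraries (rows, colour and printed value), for the 9 genes tested. The upper 7 genes are highest in normoxia replicate 3 and hypoxia replicate 1 within their groups, with CXCL8 at 2.39 and 1.84, whereas NFKBIA is lowest in both.

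A pattern by library ran through most of the 9 genes. For 7 of the 9 genes (CXCL1, CXCL2, CXCL3, CXCL8, IL6, CCL2 and TNFAIP3) normoxia replicate 3 was the highest normoxia library, hypoxia replicate 1 the highest hypoxia library and normoxia replicate 2 the lowest normoxia library. The share of all genes tested with this order was not computed, so the pattern is not shown to be particular to these genes. Over all genes tested, deviations from the group means in normoxia replicate 3 and hypoxia replicate 1 correlated at 0.505. ICAM1 and NFKBIA went otherwise, with normoxia replicate 3 the lowest of its group in both and hypoxia replicate 2 the highest. The same 2 libraries had the lowest summed endothelial and the highest summed epithelial markers, although MUC1 and KRT19 were lowest in them, as given above. Normoxia replicate 3 also had the strongest tilt toward AT-rich transcripts: the fifth of genes with the lowest GC content exceeded the fifth with the highest by 0.94 on the log2 scale there, against -0.83 to -0.19 in the other normoxia libraries. In hypoxia the same tilt was 0.36 and 0.34 in replicates 1 and 3 and -0.60 in replicate 2. Normoxia replicate 3 had reads in 16741 genes, against 18214 to 18858 in the other libraries. After correction for GC content and length, the log2 difference of CXCL8 was 0.82, a difference of groups that does not test the pattern by library. The part of cell composition or of library make-up in the pattern was not tested.

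ICAM1 (ENSG00000090339, chromosome 19, plus strand, 10270835 to 10286615) encodes the ligand of leukocyte beta-2 integrins that holds leukocytes firmly to the vessel wall. It had 1977, 1019 and 960.2 scaled reads in normoxia and 1797, 2675 and 1197 in hypoxia. Hypoxia replicate 2 was the highest, but normoxia replicate 1 lay above the other hypoxia libraries. The means were 1319 ± 571 and 1890 ± 744 (SD, n = 3 per group), with a log2 difference of 0.52 (95% interval -0.36 to 1.40). Leaving out hypoxia replicate 2 gave 0.23, and leaving out normoxia replicate 1 gave 0.85. Its exons share 815 bp with the antisense gene ICAM4-AS1, which held at most 3.11 scaled reads.

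VCAM1 (ENSG00000162692, chromosome 1, plus strand, 100719742 to 100739045) encodes the integrin ligand that endothelium shows after cytokine exposure. Its reads were 0, 0 and 10 in normoxia and 1, 1 and 2 in hypoxia, so that in 5 of the 6 libraries it was at or under the 3 reads that a count of 0 allows. The single library above that floor was normoxia replicate 3. SELE, which encodes the inducible adhesion molecule E-selectin, had 3 reads in hypoxia replicate 2 and 0 in each of the other libraries. These transcripts were thus not detectable beyond the floor at this depth in hypoxia, and no fold is given. The kappa-B match of VCAM1 shown above stood beside a transcript that was barely read, while the same kind of match stood beside NFKBIA, the most abundant of the genes.

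NFKBIA (ENSG00000100906, chromosome 14, minus strand, 35401511 to 35404749) had 5450.2, 6629 and 3427 scaled reads in normoxia and 3953, 6904 and 6084 in hypoxia. Both the lowest and the highest libraries were close in the 2 groups. The means were 5169 ± 1619 and 5647 ± 1523 (SD, n = 3 per group), with a log2 difference of 0.14 (95% interval -0.59 to 0.87). On the fold scale that interval ran from 0.666 to 1.83. The sign of NFKBIA turned without normoxia replicate 3 (-0.13) and without hypoxia replicate 2 (-0.02).

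TNFAIP3 (ENSG00000118503, chromosome 6, plus strand, 137867188 to 137883312) encodes A20, a ubiquitin-editing enzyme that shuts off signalling to IKK. It was the one gene of the 10 whose groups did not overlap, with 251, 224 and 344 scaled reads in normoxia and 496, 389 and 408 in hypoxia; among all genes tested 4.77% were separated in this direction and 2.72% in the other. The means were 273 ± 62.9 and 431 ± 57.03 (SD, n = 3 per group), a ratio of 1.58. Its log2 difference was 0.65 (95% interval 0.04 to 1.27), with an unadjusted p of 0.0395 by limma, 0.0447 by DESeq2 and 0.0625 by edgeR. Over all genes it did not pass (adjusted p = 1.00 by limma, 0.667 to 1.00 over the other settings). It was also the steadiest, with a within-group SD of 0.25 on the log2 scale, larger than that of 25.4% of the genes tested, and its difference stayed between 0.53 and 0.83 over the other settings tried.

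The rest of the pathway was read from 8 lists with 99 different genes, of which 87 were in the table and 68 were tested. None of the 68 passed limma over all genes. Among the 68, only CCL5, TNIP1 and TLR4 had groups that did not overlap, each higher in hypoxia. That is close to the share of all genes tested, 4.77% in this direction. The NF-kB and IKK subunits were close to level, with 5 of 7 tested positive and a median log2 difference of 0.02. RELB and NFKB2, the subunits of the non-canonical arm, had the largest differences, 0.75 (95% interval -0.48 to 1.98) and 0.48 (95% interval -0.31 to 1.27). Both depended on single libraries: without normoxia replicate 2 they were 0.29 and 0.23, without hypoxia replicate 2 0.46 and 0.25, and without hypoxia replicate 3 1.25 and 0.77. RELA, the main activating subunit, held 3063 to 4221 scaled reads in normoxia and 3267 to 5173 in hypoxia.

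Among the other IkB proteins and feedback inhibitors, 7 of 11 tested were positive, with a median of 0.11. TNIP1, which encodes a partner of A20, had 3464, 2879 and 4345 scaled reads in normoxia and 5375, 9428 and 5613 in hypoxia, without overlap. Its log2 difference of 0.90 (95% interval 0.25 to 1.55) had an unadjusted p of 0.0126 and an adjusted p of 1.00 by limma (0.527 to 1.00 over the other settings). TNFAIP8, a regulator of cell death, had a difference of 0.40 (95% interval -0.46 to 1.26).

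Upstream receptors and adaptors divided evenly, 8 positive and 9 negative of 17 tested, with a median of -0.00. TLR4, the receptor for bacterial lipopolysaccharide, did not overlap between groups, at 479, 818 and 892 scaled reads in normoxia and 1079, 1309 and 1730.0 in hypoxia. Its log2 difference was 0.91 (95% interval 0.17 to 1.66), with an unadjusted p of 0.0225 and an adjusted p of 1.00 by limma (0.422 to 1.00 over the other settings). TNFRSF1B, a receptor for tumour necrosis factor, stood at -0.46 (95% interval -1.68 to 0.75). IL1RAP, the co-receptor of the interleukin-1 receptor, was below the filter and is named after its values were seen. It had 32.8, 36.9 and 57.4 scaled reads in normoxia and 115, 139.99 and 148 in hypoxia, with a DESeq2 log2 difference of 1.66 (SE 0.41, adjusted p = 0.0202); edgeR gave an adjusted p of 0.4999.

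Other NF-kB-induced cytokines and chemokines went in both directions, 4 positive and 2 negative of 6 tested, with a median of 0.21. CCL5, which attracts T cells and monocytes, had 47.7, 36.0 and 18.8 scaled reads in normoxia and 70.5, 59.1 and 61.8 in hypoxia, without overlap. Its log2 difference was 0.93 (95% interval 0.09 to 1.77, adjusted p = 1.00 by limma), and 0.59 without normoxia replicate 3. CSF3, the granulocyte growth factor, lay on the other side, with 158, 89.0 and 194 in normoxia, 90.2, 72.6 and 56.1 in hypoxia and a difference of -0.93 (95% interval -1.75 to -0.10, adjusted p = 1.00). CXCL5, CXCL6, CXCL10 and CX3CL1 were not analysed here.

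Further NF-kB target genes had the highest median among the 8 lists, 0.35, with 10 of 12 tested positive. PTGS2, the inducible cyclooxygenase, had 102, 40.7 and 449 scaled reads in normoxia and 387, 236 and 116 in hypoxia (log2 difference 0.75, 95% interval -1.07 to 2.58). That difference was 0.03 without normoxia replicate 2, 0.36 without hypoxia replicate 1, 1.19 without hypoxia replicate 3 and 1.63 without normoxia replicate 3, and 0.26 by edgeR and 0.32 by DESeq2. The other adhesion molecules were level, with 4 of 7 positive and a median of 0.02; F11R stood at -0.26 and ALCAM at -0.11. ICAM2, which unlike ICAM1 is made constitutively by endothelium, held 3850 to 5502 scaled reads in normoxia and 4723 to 5203 in hypoxia. Of the receptors, IL6R stood at -0.65 (SE 0.58) and IL6ST at 0.09 (SE 0.51). CXCR2, the receptor of the CXCL1 group, had reads in 1 library only, normoxia replicate 3, at 6.58 scaled reads.

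**Figure D5:**
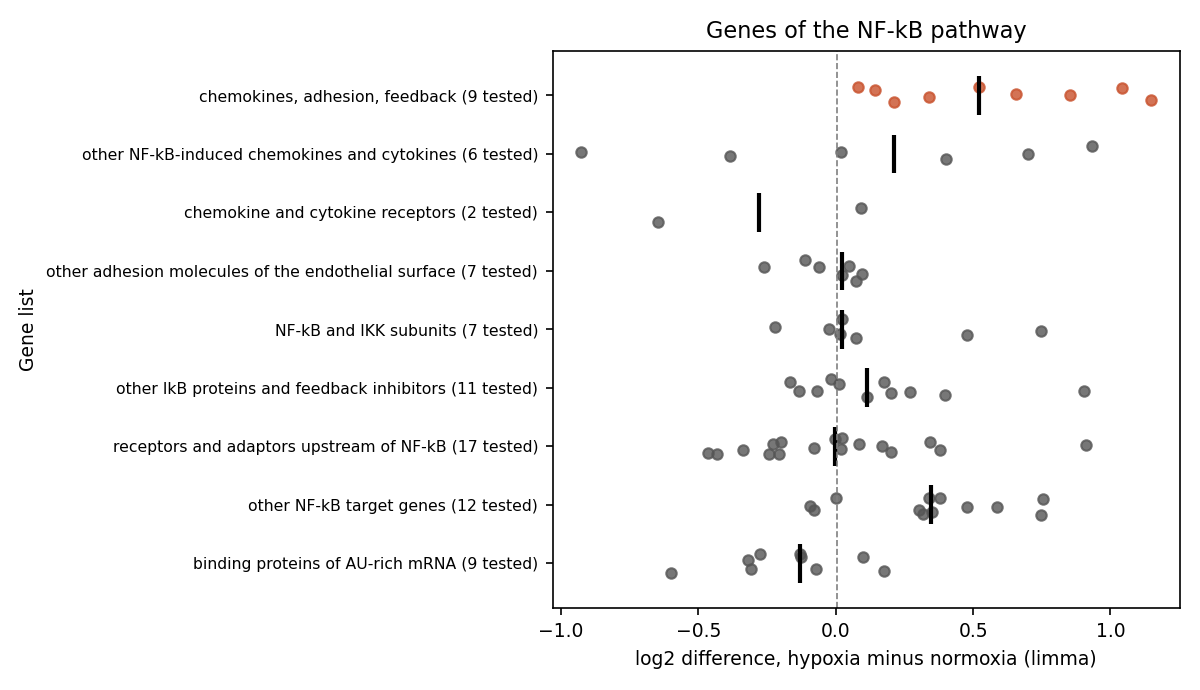
Log2 difference between hypoxia and normoxia (x axis, limma) for each tested gene of the 10 described here (red) and of 8 pathway lists (grey); black ticks are list medians and the dashed line is the median of all genes tested. The medians run from -0.28 for the receptors to 0.52 for the chemokine, adhesion and feedback genes, and some genes are in more than one list.

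Transcripts of this family are often short-lived because AU-rich elements in the 3′ UTR recruit decay proteins. The pentamer ATTTA was counted in the 3′ UTR of the transcript with the longest coding sequence. CXCL2 had 10, CXCL8 9, CXCL3 7, IL6 6, CXCL1 5 and TNFAIP3 5, while NFKBIA and VCAM1 had 3, ICAM1 had 2 and CCL2 had 1. At least 3 were found in 38.0% of 14151 coding genes, which together had 2.25 per kb of 3′ UTR. The counts were not corrected for length, which ran from 376 bases in CCL2 to 1992 in TNFAIP3. The nonamer formed by 2 pentamers that share an end base was found in CXCL2 (4), CXCL1 (2) and CXCL8 (1), against 6.29% of coding genes. The genes of AU-binding proteins leaned slightly negative, 7 of 9 tested, against 5058 of all 10237 genes tested, with a median of -0.13. A change in mRNA decay was not tested. ZFP36, the decay factor tristetraprolin, had a log2 difference of -0.60 (95% interval -1.41 to 0.21), and KHSRP one of -0.32 (95% interval -0.98 to 0.34).

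Across the 6 libraries the genes whose pattern was most like the mean standardised level of the 9 genes were DDIT3, ATF3 and EIF4EBP1, with Pearson correlations of 0.986, 0.985 and 0.984. The points share library depth and make-up. The named genes were picked as the highest of many correlations, each over 6 libraries, and high values can arise from that choice alone. How high the top values would be by chance was not computed. These values are therefore a description, and a link to cell stress was not tested. DDIT3, which encodes the stress factor CHOP, had 530, 331 and 905 scaled reads in normoxia and 1286, 722 and 672 in hypoxia. ATF3, another stress-induced transcription factor, had 410, 285 and 646 in normoxia and 1010.1, 552 and 451 in hypoxia. In both, hypoxia replicate 1 was the highest library and normoxia replicate 2 the lowest, and the groups overlapped.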

How the data were processed

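Polyadenylated RNA of EA.hy926 cells was sequenced in 3 normoxia and 3 hypoxia libraries. The submitters' processing notes list CASAVA, HISAT2 2.0.5 and featureCounts 1.5.0-p3 without settings, and a mouse build that cannot apply to human Ensembl identifiers. For build, annotation and strand setting, nothing is given in the sources used here. Deposited values are a signal of reads per gene divided by a size factor per library: 100% were whole multiples of a step (tolerance 0.05 of a step), although the file is named for FPKM. Reads were recovered by dividing by the step. "Scaled reads" are the deposited values. Replicates differed by more than sampling noise (chi-square per degree of freedom 31.0 to 186).

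GENCODE 29 held every identifier and gave exon length, position and transcript sequence, and symbols were found for 21988. An FPKM scale was made from the deposited values by exon length and mean library total; the test had been planned for FPKM. The 10237 genes reaching an FPKM of 1 in 3 or more libraries were tested as log2(FPKM + 0.1) with limma 3.58.1 (R 4.3.3; trend, robust, two-sided, Benjamini-Hochberg over all genes, threshold 0.05), which understates changes of low genes. edgeR 4.0.16 (quasi-likelihood) and DESeq2 1.42.0 on the recovered reads, other pseudocounts, filters and scalings, a GC and length correction, a replicate block and left-out libraries were alternatives. In simulated data the fit recovered 7.91% of 2-fold, 74.4% of 4-fold and 93.4% of 8-fold changes. Named list genes were those past the test, or the 2 largest differences, and the 3 genes most correlated with the members. RELA, ICAM2, SELE, CXCR2, IL1RAP, BCL2A1, BIRC3, IL1A, TNF, IL1B, PTX3, TRAF1 and NFKB1 were chosen after their values were seen. Members and lists were chosen with earlier results of these data known. Motifs were searched on both strands.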

Additional observations from a re-analysis of the deposited data

How the results depend on the processing

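None of the 10 genes passed limma, edgeR or DESeq2 in any setting, and the median log2 difference of those tested lay between 0.32 and 0.73. Over all genes, limma called 10 higher and 0 lower. The counts higher and lower were 3 and 1 without a filter, 28 and 1 with the GC and length correction, 52 and 6 by DESeq2, and 17 and 1 without normoxia replicate 3 and hypoxia replicate 1 together (chosen after seeing the data); 1 was lower with a pseudocount of 1. Leaving out 1 library gave 1 to 23 higher and 0 to 1 lower. Among the pathway lists DESeq2 called 1 gene, IL1RAP, against 0. With the replicate number as a block 19 genes were called higher, and with the block and the GC and length correction 23 higher and 1 lower. Deviations from the group means correlated at -0.398, 0.24 and 0.224 between same-numbered libraries. Normoxia replicate 1 and hypoxia replicate 2 reached 0.609, and normoxia replicate 3 and hypoxia replicate 1 reached 0.505. These values do not settle whether same-numbered libraries share a culture or batch. CCL2 was -0.0042 with the GC and length correction, with or without the block, and -0.06 without those 2 libraries. CXCL8 was -0.20 by edgeR and -0.14 by DESeq2, IL6ST -0.27 and -0.22, and without those 2 libraries ALCAM was 0.45 and IL6ST 0.7725. Leaving out 1 library gave -0.44 to 0.46 for CCL2, -0.0179 to 0.73 for CXCL2, -0.0907 to 0.57 for IL6, -0.13 to 0.38 for NFKBIA, -0.27 to 0.74 for IL6ST, -0.53 to 0.49 for ALCAM, -0.65 to 0.022 for F11R, -1.25 to -0.28 for IL6R, -0.94 to -0.02 for TNFRSF1B, 0.22 to 0.73 for TNFAIP8, -0.90 to -0.33 for ZFP36 and -0.56 to -0.09 for KHSRP. The cause of these changes was not tested. VCAM1, at 0 to 10 reads, is limited by depth.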

Other observations

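Like CXCL8, 3 NF-kB targets outside the 10 genes, named after their values were seen, had normoxia replicate 3 and hypoxia replicate 1 as their highest libraries. They are examples and not the full set. Other genes of the lists, such as PTX3 and TRAF1, had the same highest libraries, while others, such as RELA and NFKB1, did not. The share of the lists, or of all genes, with this order was not computed. BCL2A1, an inhibitor of apoptosis, had 4.24, 10.4 and 259.6 scaled reads in normoxia and 114, 12.4 and 9.51 in hypoxia. BIRC3, a ubiquitin ligase of the TNF receptor complex, had 20.1, 9.47 and 209.7 in normoxia and 124, 27.0 and 26.6 in hypoxia. IL1A, an alarm cytokine that itself activates NF-kB, had 54.0, 44.5 and 473 in normoxia and 212, 37.3 and 63.7 in hypoxia. Unlike in CXCL8, hypoxia replicates 2 and 3 were not all above normoxia replicates 1 and 2 in IL1A and BCL2A1. TNF, which encodes tumour necrosis factor, had at most 5 reads in any library, and IL1B at most 22.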
